A study of Mus musculus with 2 samples.

Results

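Interferon-responsive microglia were selected here as single cells that carried the transcripts of an interferon response. A cell was taken when its summed counts, not scaled for depth, of 10 interferon-stimulated genes (*Ifit1*, *Ifit2*, *Ifit3*, *Ifit3b*, *Isg15*, *Irf7*, *Usp18*, *Rsad2*, *Oasl2* and *Ifi44*, called the rule genes below) reached at least 10, when at least 4 of the 10 genes were detected, and when the summed counts of *Mrc1*, *Pf4*, *Ms4a7*, *Cd163* and *Cbr2*, which mark border-associated macrophages (BAM), were under 5. The rule found 740 of 42766 cells. Of these, 264 of 18374 came from mice given vehicle (VEH) and 476 of 24392 from mice given lemborexant (LEM), an antagonist of both orexin receptors. They were compared with low cells, in which the rule genes summed to 0 to 2 and the BAM markers to under 5 (17453 VEH and 22657 LEM cells). Intermediate cells, with a sum of 3 to 9, numbered 618 in VEH and 1180 in LEM.

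The cells came from PSAPP mice, which carry the transgene labelled APPswe/PS1.delta.E9 and deposit amyloid plaques. Both groups carried it, and no group without it was profiled. LEM mice received 30 mg/kg/day by gavage and VEH mice the vehicle alone, for 30 days from 9 to 10 months of age. CD45lo CD11b+ DAPI- cells were sorted from the cortex and hippocampus of 1 hemisphere, and 5 mice of both sexes were pooled into 1 10x 5′ library per treatment. The mice within a pool cannot be told apart except by sex, so each treatment was 1 sample and no test between treatments was possible. All values below are descriptions of these 2 libraries. Intervals are at the 95% level and cover counting error only, and genes and cells are not replicates. The cell names of the table were numbered rather than barcoded, so barcodes shared between libraries could not be counted.

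Interferons are secreted proteins that warn cells of infection. Type I interferons (the alpha family and *Ifnb1*) bind the receptor of *Ifnar1* and *Ifnar2*, the kinases *Jak1* and *Tyk2* act on STAT factors, *Stat2* among them, and these join *Irf9* to form a factor that binds a DNA element, the interferon-stimulated response element (ISRE). Interferon gamma uses the receptor of *Ifngr1* and *Ifngr2*, and its signal reaches another element, the gamma-activated site (GAS). In the brain, microglia with this signature are known from ageing, viral infection and amyloid models as a small state next to homeostatic and disease-associated microglia (DAM).

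The label held in part by construction, since *Ifit3*, *Isg15*, *Irf7* and *Usp18* were in the rule. Genes that define microglia did not enter the rule, although markers of BAM did, as an upper limit. The 10 genes used to define microglia, among them *Ctss*, *C1qa*, *C1qb*, *C1qc*, *Cx3cr1*, *P2ry12*, *Tmem119*, *Csf1r* and *Fcrls*, summed to 54217 CPM (the counts of a gene scaled to a common total) in VEH and 55265 CPM in LEM interferon-responsive cells, against 53594 and 54926 CPM in low cells. Markers of other cells were low. The sort for CD45lo CD11b+ cells, and the removal of other cell types that the authors describe, may also bear on this. Of 11 T and NK cell markers 10 were at 0 (among them *Cd3e*, *Trac* and *Nkg7*), and of 8 neutrophil markers 7 were at 0. Of 10 BAM markers *Cd163*, *Lyve1* and *Cd209f* were at 0. The BAM list summed to 31.5 CPM in VEH and 23.7 CPM in LEM, against 14.3 and 13.5 CPM in low cells. *Mrc1*, *Pf4*, *Ms4a7*, *Cd163* and *Cbr2* are in this list and were capped in both classes, so the BAM values are in part set by the selection. The 9 monocyte markers summed to 52.7 and 41.8 CPM against 8.18 and 9.35 CPM. Most of this was *Plac8* (42.3 and 35.4 CPM), while *Ly6c2*, *Chil3* and *Hp* were at 0. Transcripts of the choroid plexus, chiefly *Ttr*, summed to 239 CPM in VEH and 0.244 CPM in LEM, against 462 and 1405 CPM in low cells. Without cells that held at least 5 counts of the markers of 1 other cell type the share of interferon-responsive cells was 1.40% in VEH and 1.92% in LEM, against 1.44% and 1.95% with them. Their part in the gene levels was not tested.

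Interferon-responsive cells were deeper than low cells. Their median total was 7218 counts in VEH and 7551.5 in LEM, against 5908 and 5947, which the rule favours because it asks for unscaled counts. The 2 libraries held 116229678 and 160752298 counts. Cells that Scrublet called doublets made up 1.14% of the VEH and 6.30% of the LEM interferon-responsive cells, below the 8.37% and 13.99% among low cells.

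Promoters of the rule genes and of genes that moved with them are shown because the ISRE is the DNA element that the interferon-activated factor reads. RefSeq windows of GRCm38.p6, from 250 bases before to 50 after each start site, were searched on both strands for GAAANNGAAA (TTTCNNTTTC on the other strand). The capitals mark the matches, and overlapping matches run together. *Ifit3* (chr19:34583279-34583578, + strand) held 2 matches, the first base of them 156 and 122 bases before the start site, and its near-identical neighbour *Ifit3b* (chr19:34607707-34608006, + strand) held 2 with the same spacing. *Isg15* (chr4:156200769-156201068, - strand) held 3 overlapping matches, *Rsad2* (chr12:26456403-26456702, - strand) 1, and *Bst2* (chr8:71537423-71537722, - strand) 2 overlapping ones. *Cxcl10* (chr5:92348840-92349139, - strand) held 1. The windows of *Irf7* (chr7:141266375-141266674, - strand) and *Ccl12* (chr11:82101595-82101894, + strand), 2 genes that were also high in these cells, held none and are shown for contrast.
Ifit3: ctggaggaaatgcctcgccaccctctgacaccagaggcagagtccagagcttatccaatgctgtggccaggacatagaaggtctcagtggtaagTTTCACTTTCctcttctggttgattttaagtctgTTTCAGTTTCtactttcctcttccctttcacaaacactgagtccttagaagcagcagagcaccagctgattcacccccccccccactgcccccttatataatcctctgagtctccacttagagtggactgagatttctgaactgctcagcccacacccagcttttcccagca
Ifit3b: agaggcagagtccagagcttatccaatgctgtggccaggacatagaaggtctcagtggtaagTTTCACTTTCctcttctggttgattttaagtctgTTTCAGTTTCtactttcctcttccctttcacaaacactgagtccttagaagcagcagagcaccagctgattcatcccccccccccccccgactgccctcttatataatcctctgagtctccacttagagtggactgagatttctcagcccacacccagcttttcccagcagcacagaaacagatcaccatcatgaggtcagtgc
Isg15: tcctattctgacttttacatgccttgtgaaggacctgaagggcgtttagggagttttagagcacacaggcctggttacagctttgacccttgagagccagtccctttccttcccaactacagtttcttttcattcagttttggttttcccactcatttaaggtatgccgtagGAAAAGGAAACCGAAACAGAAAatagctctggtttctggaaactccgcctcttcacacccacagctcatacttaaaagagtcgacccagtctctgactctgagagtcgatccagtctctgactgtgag
Rsad2: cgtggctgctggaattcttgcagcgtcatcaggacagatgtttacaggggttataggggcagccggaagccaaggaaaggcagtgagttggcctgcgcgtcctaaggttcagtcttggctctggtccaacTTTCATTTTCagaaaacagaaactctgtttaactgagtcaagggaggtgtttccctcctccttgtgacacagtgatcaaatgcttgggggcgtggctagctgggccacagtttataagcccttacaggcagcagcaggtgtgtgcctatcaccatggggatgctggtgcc
Bst2: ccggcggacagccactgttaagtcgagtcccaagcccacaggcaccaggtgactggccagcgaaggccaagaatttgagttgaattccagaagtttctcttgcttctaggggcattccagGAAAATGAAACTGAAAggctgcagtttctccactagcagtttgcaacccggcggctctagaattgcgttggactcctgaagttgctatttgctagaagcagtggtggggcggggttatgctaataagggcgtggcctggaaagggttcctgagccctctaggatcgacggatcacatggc
Cxcl10: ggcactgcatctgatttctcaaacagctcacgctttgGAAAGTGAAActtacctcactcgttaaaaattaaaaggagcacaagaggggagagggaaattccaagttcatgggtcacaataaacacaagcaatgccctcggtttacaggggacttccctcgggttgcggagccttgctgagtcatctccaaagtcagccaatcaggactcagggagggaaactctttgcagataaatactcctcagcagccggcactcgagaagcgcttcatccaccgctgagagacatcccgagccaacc
Irf7: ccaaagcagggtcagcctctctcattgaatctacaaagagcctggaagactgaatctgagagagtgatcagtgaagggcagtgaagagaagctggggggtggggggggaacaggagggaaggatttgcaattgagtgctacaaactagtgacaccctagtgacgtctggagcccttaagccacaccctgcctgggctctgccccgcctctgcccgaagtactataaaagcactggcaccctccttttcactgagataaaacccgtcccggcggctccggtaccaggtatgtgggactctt
Ccl12: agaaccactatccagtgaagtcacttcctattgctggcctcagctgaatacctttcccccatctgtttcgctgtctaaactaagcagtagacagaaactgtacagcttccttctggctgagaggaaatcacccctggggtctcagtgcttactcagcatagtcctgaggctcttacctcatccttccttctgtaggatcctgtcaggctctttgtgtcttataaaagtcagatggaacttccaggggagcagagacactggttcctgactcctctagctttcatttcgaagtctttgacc

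Of the 10 rule genes 9 had a window and 5 of these held the letters (*Ifit1*, *Ifit3*, *Ifit3b*, *Isg15* and *Rsad2*). Over the rule genes together with the genes described below as higher in interferon-responsive cells, 153 of 191 had a window (80.1%), and 55 of these (35.9%) held an ISRE match. Among tested genes that were not past the fold, 224 of 6579 windows (3.40%) held one, and among all 27025 mouse windows 1079 (3.99%) did. The GAS letters TTCNNNGAA were in 20 of the 153 windows (13.1%), against 8.19% of the windows of genes not past the fold and 9.55% of all windows. A match is a string of letters and not a binding site, and its absence says only that these letters are not in the window.

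The rule genes differed widely in level. UMI counts each stand for 1 molecule at its 5′ end and were not divided by gene length. In VEH interferon-responsive cells *Ifit3*, an antiviral protein that binds foreign RNA together with *Ifit1*, reached 788 CPM, and *Isg15*, a ubiquitin-like modifier, 655 CPM. *Ifi44* followed at 484 CPM, *Ifit3b* at 446, *Ifit2* at 390, *Irf7*, the transcription factor that amplifies interferon production, at 377, *Usp18*, the protease that removes *Isg15* and dampens receptor signalling, at 374, *Oasl2* at 291, *Ifit1* at 230 and *Rsad2* (viperin) at 86.1 CPM. In LEM cells the same genes were at 666, 594, 451, 353, 345, 375, 322, 273, 168 and 84.7 CPM. In low cells all 10 lay between 0.110 and 12.5 CPM in VEH and between 0.137 and 14.5 CPM in LEM, as the selection requires. *Ifit3* was the highest of the 10 in 28.4% of VEH and 28.8% of LEM interferon-responsive cells, *Isg15* in 24.6% and 22.5%, and *Ifi44* in 15.9% and 18.7%. Reads of *Ifit3* and *Ifit3b* can be shared between the copies, so their split is uncertain.

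The response was graded. The median rule-gene sum was 22 in VEH and 20 in LEM, with quartiles of 14 and 40 in VEH and 14 and 39 in LEM, and the highest cells held 249 and 257. At least 100 counts were reached by 11 VEH and 15 LEM cells, and all 10 genes were detected in 35 and 56. These cells, 1.44% and 1.95% of their libraries, held 57.0% and 56.5% of all rule-gene counts. The rule cuts through a continuous range. Cells just inside, with a sum of 10 or 11 (36 VEH and 70 LEM cells), held *Ifitm3* at 419 and 459 CPM and *Bst2* at 688 and 730 CPM, and cells with a sum of 8 or 9 (55 and 115 cells) held *Ifitm3* at 284 and 319 CPM and *Bst2* at 438 and 522 CPM.

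Transcripts of the interferons themselves were close to absent. Over all 20 ligand genes, 7 counts were found in the whole VEH library, in 7 cells of which none was interferon-responsive, and 25 counts in the LEM library, in 13 cells of which 5 were. The 12 numbered alpha genes (*Ifna1* to *Ifna16*) were at 0 in both libraries, and *Ifnab* had 2 counts in 2 VEH cells. *Ifnb1* had 0 counts in VEH and 19 counts in 7 LEM cells, 4 of them interferon-responsive. A count of 0 allows up to 3 counts at this depth, and ligands made by cells outside the sort were not measured.

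The receptors were not higher. Of 6 receptor genes 5 were tested, meaning that they were detected in at least 10% of interferon-responsive cells of either library, and 0 of 5 were past the fold, a log2 ratio of interferon-responsive over low cells of at least 1 in both libraries. *Ifnar1* was at 41.9 CPM against 53.4 CPM in VEH and at 42.2 against 54.7 CPM in LEM, and *Ifngr1* at 559 against 698 CPM and 545 against 729 CPM. *Ifnar2*, the other chain of the type I receptor, was nearly level, at 331 against 310 CPM in VEH and 382 against 336 CPM in LEM.

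Of 15 signalling genes tested 4 were past the fold upward. *Stat2* was at 175 CPM in VEH and 147 CPM in LEM interferon-responsive cells against 19.1 and 18.7 CPM in low cells, log2 ratios of 3.196 (3.03 to 3.36) and 2.97 (2.84 to 3.10). *Irf9* had ratios of 1.34 and 1.11, and *Irf1*, a factor that interferon gamma induces, of 1.71 and 1.64. The receptor kinases were not past the fold. *Jak1* was at 124 against 158 CPM in VEH and 132 against 144 CPM in LEM, and *Tyk2* at 34.3 against 31.0 and 33.9 against 33.1 CPM. *Irf8*, a DNA-binding lineage factor of microglia, was not past the fold either, at 616 against 477 CPM in VEH and 587 against 495 CPM in LEM. Of 8 inhibitors tested, *Socs1*, which blocks the Jak kinases, had ratios of 2.18 and 2.25, and *Adar*, the RNA-editing enzyme, of 1.95 and 1.80, while *Socs3* was at 205 against 276 CPM in VEH and 234 against 272 CPM in LEM.

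**Figure D1:**
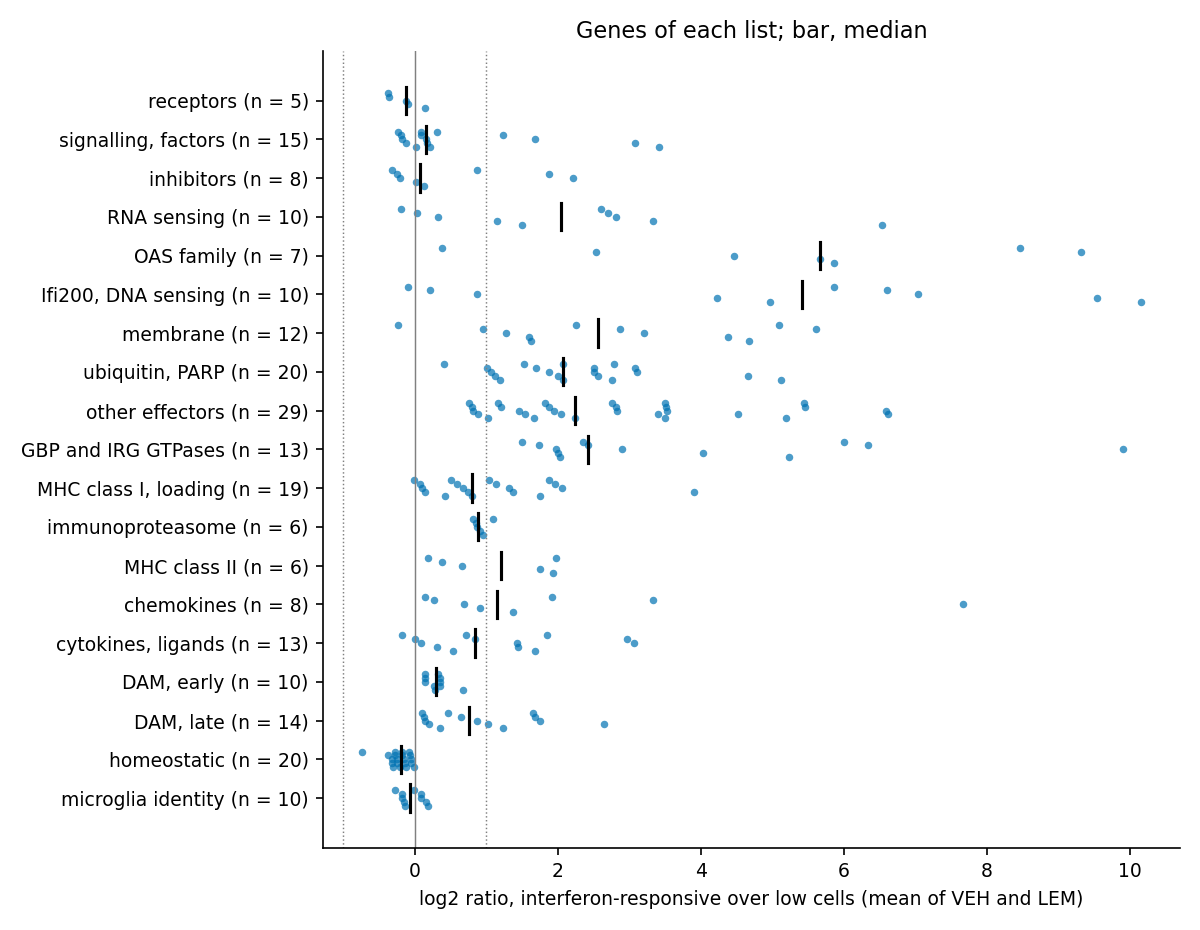
Log2 ratio of interferon-responsive over low cells (horizontal axis, mean of the VEH and LEM ratios) for the tested genes of each list (vertical axis), 1 point per gene, with a black bar at the list's median and dotted lines at -1 and 1. Effector and GTPase lists spread to the right up to a ratio near 10, and receptors, homeostatic and early DAM genes lie between -1 and 1.

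The effector genes outside the rule moved with it. Of 102 effectors written in the lists 98 were in the table and 88 were tested, and 70 of 88 were past the fold upward and 0 downward. Over all genes, 181 of 8283 were past the fold upward (2.19%) and 2 downward (0.0241%), *Sema4b* and *Myo18b*. Because the same cells chose the members, these counts are a description and nothing is read from the comparison. The median log2 ratio of the effectors was 2.68 in VEH and 2.39 in LEM, and that of all genes tested was -0.07 and -0.10. Of the 181 genes, 97 were in an interferon or MHC class I list and 84 in none.

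Among sensors of viral nucleic acid, 6 of 10 tested genes of RNA sensing were past the fold. *Zbp1*, a sensor of left-handed nucleic acids, rose from 1.39 CPM in low cells to 154 CPM in VEH and from 1.57 to 121 CPM in LEM. The helicase sensors *Ifih1* (MDA5) and *Ddx58* (RIG-I) were at 165 and 158 CPM in VEH and 139 and 139 CPM in LEM, against 21.6 to 23.2 CPM in low cells. *Eif2ak2* (PKR), the kinase that halts translation, had ratios of 2.79 and 2.41. Their shared adaptor *Mavs* was level, at 39.97 against 42.2 CPM in VEH and 47.9 against 43.8 CPM in LEM. Of the oligoadenylate synthetases, which make a messenger that sets off RNA decay, 6 of 7 listed genes tested were past the fold. *Oas1a* was at 238 and 209 CPM against 8.36 and 12.2 CPM, and *Oasl1*, which neighbours *Oasl2* on chromosome 5, at 53.6 and 56.4 CPM against 0.0644 and 0.117 CPM. Of the Ifi200 family and DNA sensors 7 of 10 were past the fold. *Ifi204* was at 180 and 143 CPM against 2.36 and 3.198 CPM, and *Ifi209* at 160 and 119 CPM against 4.04 and 4.81 CPM, while the DNA-sensing adaptor *Tmem173* (STING) was at 347 against 362 CPM and 328 against 357 CPM. The DNA sensors *Aim2* (0.25 and 0.18) and *Cgas* (1.02 and 0.71) were not past the fold in both libraries, nor were the RNA sensors *Tlr3* (1.33 and 0.98) and *Tlr7* (0.46 and 0.21) and the helicase *Dhx33* (0.06 and -0.44).

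Membrane and entry effectors were among the most abundant. Of 12 tested 10 were past the fold. *Ly6e*, a surface protein that restricts coronavirus entry, was at 1869 CPM in VEH and 2198 CPM in LEM, and *Bst2* (tetherin), which holds budding virions at the cell surface, at 872 and 829 CPM against 117 CPM in the low cells of both libraries. *Ifitm3*, which blocks fusion in endosomes, was at 769 and 732 CPM against 12.2 and 19.2 CPM, *Ifi27l2a* at 502 and 550 CPM against 47.1 and 68.9 CPM, and *Rtp4* at 459 and 407 CPM against 18.02 and 24.2 CPM. *Bst2* was detected in 96.2% and 97.3% of the interferon-responsive cells. How its counts were spread over these cells was not measured.

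Of ubiquitin, ISG15-pathway and PARP genes 18 of 20 were past the fold, among them *Herc6*, a mouse ligase for *Isg15* (3.25 in VEH and 2.97 in LEM), its conjugating enzyme *Ube2l6* (2.90 and 2.61), the activating enzyme *Uba7* (1.05 and 1.09), *Parp14* (3.18 and 2.97) and *Trim30a* (2.58 and 2.42). *Uba7*, *Ube2l6* and *Herc6*, which act in turn to attach *Isg15*, were thus each past the fold, *Uba7* only narrowly. Of the remaining effectors 23 of 29 were, including *Xaf1*, *Phf11b*, *Phf11d*, *Sp100* and *Slfn2*, which lay between 205 and 301 CPM. *Slfn5* was at 156 and 140 CPM against 1.12 and 2.01 CPM. Copies within the Phf11, Slfn, Trim30, Ifi200 and Oas clusters are near-identical in part, and their split is uncertain.

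All 13 tested genes of the GTPase families that interferon gamma induces most strongly were past the fold. *Irgm1*, an immunity-related GTPase, was at 275 and 247 CPM against 35.5 and 34.7 CPM, *Igtp* at 197 and 151 CPM against 33.3 and 30.9 CPM, and *Gbp2*, a guanylate-binding protein, at 80.0 and 64.0 CPM against 4.75 and 4.05 CPM. The genes with the highest ratios outside the rule were *Ifi208*, *Iigp1*, *Ifi211*, *Oasl1*, *Oas3*, *Cxcl10*, *Ifi47*, *Ifi213*, *Cmpk2*, *Ifi207*, *Gm13822*, *Zbp1*, *Slfn5*, *Tgtp2* and *Gbp6*. For *Ifi208* the low cells held only 3 counts in VEH and 2 in LEM, and for *Iigp1* 3 and 5, so their ratios are poorly fixed.

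Antigen presentation by MHC class I moved less. Of 19 tested 8 genes were past the fold. *Nlrc5*, the transactivator of class I genes, had log2 ratios of 4.04 and 3.76, the peptide transporter *Tap1* of 2.20 and 1.92, and the non-classical *H2-T23* of 1.37 and 1.25. The abundant chains were higher by smaller factors, *B2m* at 1695 against 1004 CPM in VEH (0.76) and 1662 against 1011 CPM in LEM (0.72), *H2-D1* at 1157 against 654 CPM and 1263 against 738 CPM, and *H2-K1* at 750 against 347 CPM and 798 against 408 CPM. Of 6 immunoproteasome genes *Psmb9* alone was past the fold (1.09 in both libraries), with *Psme2* at 0.96 and 0.95 and *Psmb8* at 0.78 and 0.84 just below it.

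Of 8 chemokines tested 4 were past the fold. *Ccl12*, a ligand of *Ccr2*, was the most abundant, at 2708 CPM in VEH and 1808 CPM in LEM against 218 and 222 CPM, and it was detected in 87.1% and 82.1% of the cells. *Ccl2* was at 251 and 179 CPM against 58.6 and 54.1 CPM, and *Ccl4* at 1265 and 1130 CPM against 490 and 438 CPM. *Cxcl10*, which draws Cxcr3-bearing T cells, was different in kind. It stood at 385 CPM in VEH and 341 CPM in LEM against 1.78 CPM in the low cells of both libraries, but it was detected in only 9.47% and 10.5% of the interferon-responsive cells, and the 5 highest cells held 78.4% and 55.3% of its counts. Of 13 cytokine and checkpoint genes tested 5 were past the fold, *Cd274* (PD-L1), *Csf1*, *Il18bp*, *Il27* and *Tnfsf10* (TRAIL). *Tnfsf10* was at 34.8 and 33.4 CPM against 4.17 and 3.95 CPM.

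None of 20 homeostatic genes was past the fold. Their median log2 ratio was -0.15 in VEH and -0.24 in LEM, beside -0.07 and -0.10 over all genes tested. The homeostatic genes summed to 101377 CPM in VEH and 96499 CPM in LEM interferon-responsive cells, against 108306 and 101911 CPM in low cells. *P2ry12*, the purinergic receptor that guides process movement, was at 3605 against 4327 CPM and 3375 against 4165 CPM, and *Tmem119* at 1935 against 2064 CPM and 1806 against 2103 CPM. Of 10 early DAM genes 0 were past the fold, with *Apoe*, the lipid carrier, at 1686 against 1325 CPM in VEH and 2613 against 2024 CPM in LEM. Of 14 late DAM genes 4 were, *Axl*, a receptor for dying cells that is also interferon-inducible (2.91 and 2.38), *Cst7*, *Spp1* and *Csf1*. *Cst7*, a cystatin, was at 299 and 243 CPM against 97.3 and 76.3 CPM but was detected in 19.3% and 22.9% of the cells. None of 5 cell cycle genes and none of 13 immediate early genes was past the fold, with *Fos* at 1496 against 1690 CPM and 1237 against 1403 CPM. Genes past the fold in no interferon list included *Fcgr1*, the high-affinity receptor for IgG (823 and 796 CPM against 331 and 358 CPM), *Fgl2* (151 and 150 CPM against 16.3 and 23.2 CPM) and *Cybb*, the catalytic subunit of the phagocyte NADPH oxidase (26.8 and 31.0 CPM against 1.90 and 2.41 CPM). These 3 were named after their values were seen.

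Some of the genes that were higher are members of gene families, and whether the 181 cluster along chromosomes was not tested. On chromosome 11 lay *Irgm1*, *Irgm2*, *Igtp* and *Tgtp2* and 4 Slfn genes. Chromosome 5 held 6 of the Oas family and 3 of the Gbp family, chromosome 7 held 8 Trim genes and chromosome 1 held 7 Ifi200 genes. Genes of the MHC lay on chromosome 17. How many tested genes each chromosome held was not counted, so no excess is read from these places.

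Bands of the rule-gene sum showed which genes kept pace with it. *Stat2* was at 19.1 CPM in VEH low cells, 41.2 in intermediate cells, 88.1 at sums of 10 to 19, 198 at 20 to 39 and 282 at 40 and above, and in LEM at 18.7, 35.4, 91.9, 144 and 258 CPM. *Ccl12* climbed from 218 through 363, 1116 and 2105 to 5724 CPM in VEH and from 222 through 320, 732 and 1335 to 4444 CPM in LEM. The 16 GTPase genes summed to 156, 254, 555, 819 and 1933 CPM in VEH and to 157, 246, 510, 666 and 1924 CPM in LEM. All 3 measures were higher in each band than in the one below it, in both libraries. *Ifi27l2a* levelled off instead. In VEH it was at 47.1, 275, 501, 473 and 534 CPM, and in LEM at 68.9, 374, 570, 484 and 588 CPM.

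*Cxcl10* was highest at the top of the range in both libraries, and in LEM it was raised from sums of 10. In VEH it was at 1.78, 19.7, 5.51 and 17.9 CPM in the 4 lower bands and at 1331 CPM at sums of 40 and above, and in LEM at 1.78, 9.87, 129, 133 and 992 CPM. *Cst7* went the other way at the top. It was at 97.3, 323, 290 and 543 CPM in the 4 lower VEH bands and at 64.7 CPM in the highest, and in LEM at 76.3, 242, 226 and 391 CPM and then 107 CPM. The share of cells with at least 5 counts over 7 late DAM genes (*Cst7*, *Lpl*, *Spp1*, *Itgax*, *Gpnmb*, *Igf1* and *Fabp5*) was 13.1% in VEH intermediate cells, 14.2% at sums of 10 to 19, 10.96% at 20 to 39 and 4.23% (0.880 to 11.9) at 40 and above, and in LEM 12.4%, 13.8%, 17.3% and 6.84% (2.998 to 13.03). Low cells drawn to the depth of the interferon-responsive cells held 6.04% and 6.67%. Cells with late DAM transcripts were thus found along the lower and middle range, and at the top their share was near that of depth-matched low cells. The 5 highest cells held 62.98% of these counts in VEH and 37.5% in LEM at sums of 10 to 19, and 84.6% and 54.4% at 20 to 39.

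**Figure D2:**
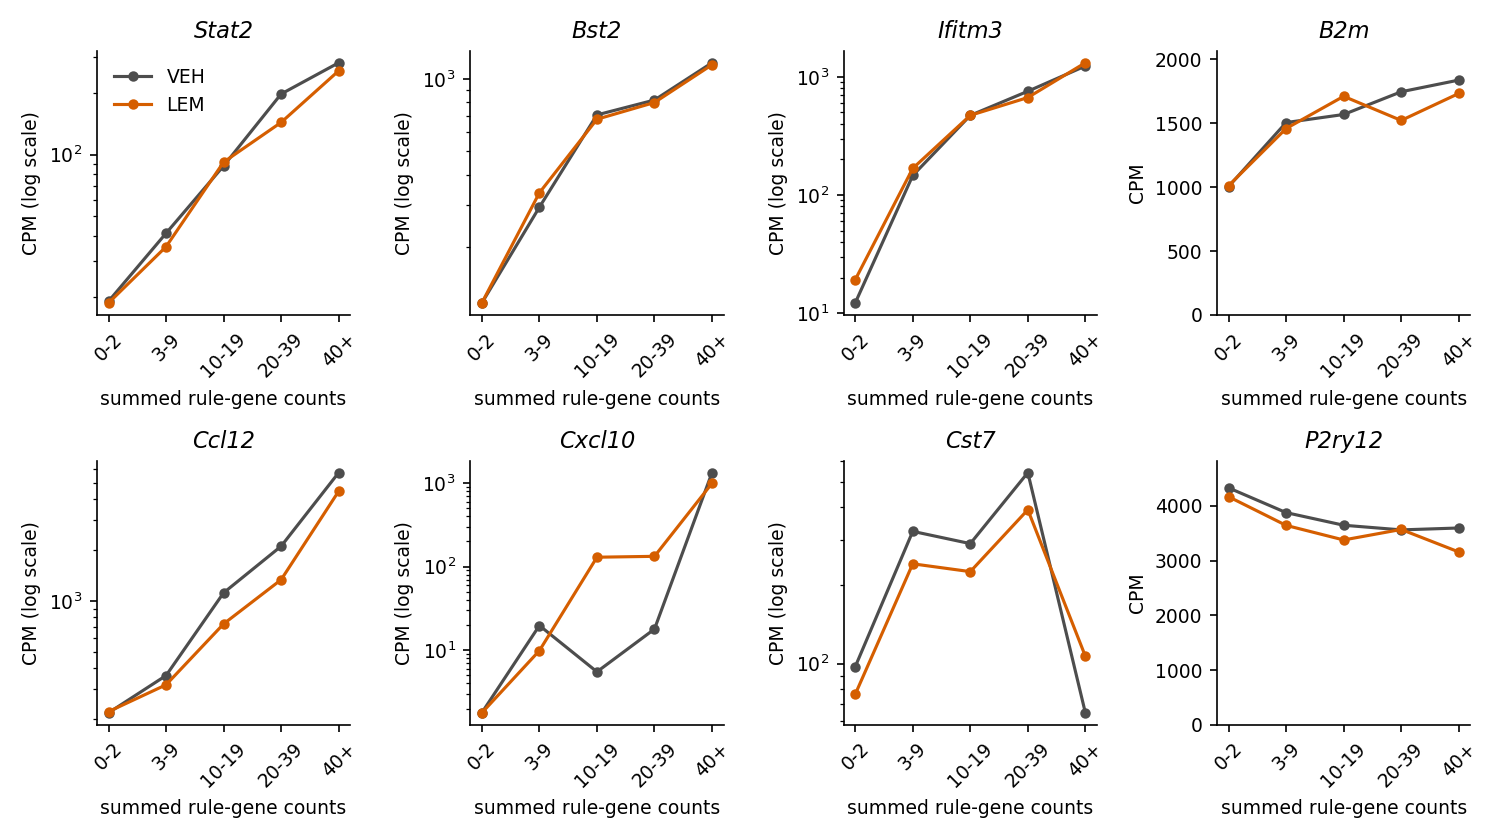
Level in CPM (vertical axis, logarithmic except for *B2m* and *P2ry12*) of 8 genes in cells grouped by the summed counts of the 10 rule genes (horizontal axis), for VEH and LEM, each point being the pooled cells of 1 band in 1 library. *Stat2* climbs through every band, *Cxcl10* reaches 1331 and 992 CPM in the highest band, and *Cst7* falls there to 64.7 and 107 CPM.

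The cells with *Cxcl10* were described further because the transcript was so concentrated. At least 3 counts were held by 17 of 264 VEH (6.44%) and 39 of 476 LEM (8.19%) interferon-responsive cells, against 0.142% and 0.194% of depth-matched low cells. Their median rule-gene sum was 95 in VEH and 65 in LEM. To set them beside cells of a comparable response, interferon-responsive cells with under 3 counts of *Cxcl10* and a rule-gene sum of at least 20 were used (127 and 210 cells), although their median sums of 36 and 34.5 stayed lower. Of the chemokines, *Ccl12* was at 10626 against 2914 CPM in VEH and 7867 against 1963 CPM in LEM, and *Ccl4* at 3959 against 944 CPM and 4183 against 961 CPM.

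Other genes, chosen after values were seen, rest on few counts in the 17 VEH cells. *Cd274* was at 148 against 37.6 CPM in VEH (23 and 40 counts) and 200 against 44.2 CPM in LEM. *Cd40*, the costimulatory receptor, had 15 counts in the 17 VEH cells and 0 in the others, and was at 194 against 1.08 CPM in LEM. *Tnf* was at 116 against 46.1 CPM in VEH (18 and 49 counts) and at 837 against 60.3 CPM in LEM. Over all interferon-responsive cells, 81 of 145 VEH and 264 of 476 LEM *Tnf* counts were left without the 5 highest cells. How they were spread over the cells with *Cxcl10* was not measured. *Nfkbia*, an inhibitor of NF-kappaB, was at 387 against 326 CPM in VEH and 929 against 299.5 CPM in LEM, and *Nfkbiz* at 322 against 229 CPM and 490 against 215.5 CPM. *Socs1* (193 against 39.5 CPM and 169 against 53.9 CPM) and *Gbp2* (355 against 75.3 CPM and 274 against 68.95 CPM) were also higher in the cells with *Cxcl10*. *P2ry12* (2431 against 3743 CPM and 2424 against 3531 CPM) and *Cst7* (77.4 against 340 CPM and 76.4 against 286 CPM) were lower. Of the 19 *Ifnb1* counts in LEM, 11 were in interferon-responsive cells with *Cxcl10* and 5 in those without. *Cxcl10* was also found in low cells, where 15 VEH and 30 LEM cells held at least 3 counts, with *Tnf* at 491 and 741 CPM. *Ifit3* was at 0 in them, which the selection of low cells largely requires, so nothing is read from it. The *Tnf* level of the other low cells was not set beside these values.

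**Figure D3:**
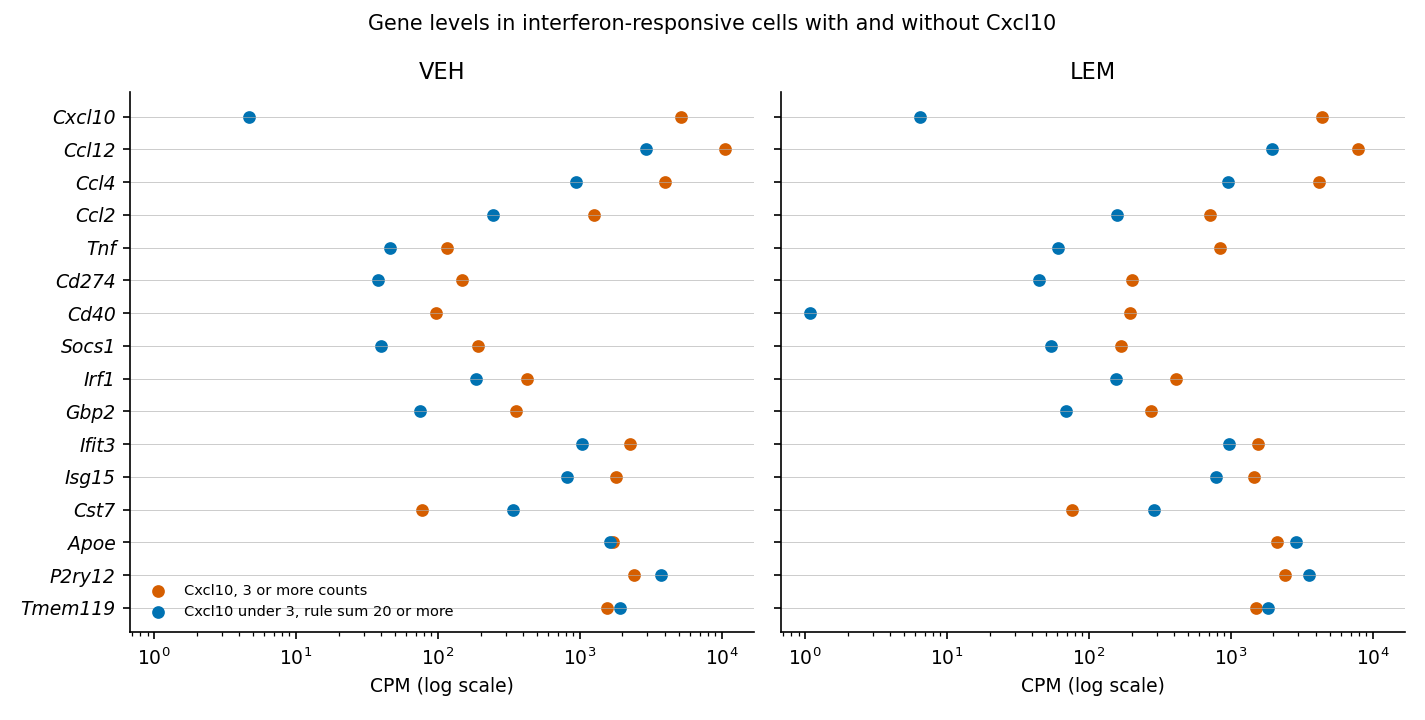
Level in CPM (logarithmic horizontal axis) of genes (vertical axis) in interferon-responsive cells with at least 3 counts of *Cxcl10* and in those with under 3 counts and a rule-gene sum of at least 20, with 1 panel per library. *Ccl12*, *Ccl4*, *Cd274* and *Socs1* are higher and *Cst7* and *P2ry12* lower in cells with *Cxcl10*, and *Cd40* at 0 counts in VEH is not drawn.

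The comparison of LEM with VEH asked whether the state was more frequent after the drug. Interferon-responsive cells made up 1.44% of VEH cells (1.27 to 1.62, exact Clopper-Pearson) and 1.95% of LEM cells (1.78 to 2.13), a log2 ratio of 0.44 (0.23 to 0.66). The intermediate cells stood in the same order, at 3.36% and 4.84%. With 1 pool per treatment, the spread between mice is not known and no test could be made.

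The pools held cells of both sexes, which were told apart by sex-linked transcripts, and the ratio differed between them. Among female cells the share was 0.9497% in VEH (54 of 5686) and 2.18% in LEM (183 of 8409), a log2 ratio of 1.20 (0.76 to 1.63). Among male cells it was 1.70% in VEH (153 of 9025) and 1.577% in LEM (177 of 11223), a log2 ratio of -0.10 (-0.41 to 0.21). Cells that could not be assigned a sex were at 1.56% and 2.44%. In VEH the female share was below the male one (log2 ratio -0.84, -1.28 to -0.39) and in LEM above it (0.46, 0.17 to 0.76). The numbers of female and male mice behind these cells are unknown, and 1 mouse could set the value of a sex within a pool, so sex and mouse cannot be told apart.

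The ratio was also taken by bands of the rule-gene sum, and differences between bands were not tested. At sums of 10 to 19 the female share had a log2 ratio of 1.70 (1.02 to 2.38, 21 VEH and 101 LEM cells), at 20 to 39 of 1.20 (0.37 to 2.03), and at 40 and above of 0.22 (-0.62 to 1.06, 18 and 31 cells). In male cells the 3 bands had ratios of -0.31, -0.06 and 0.17, and each interval included 0. Female intermediate cells made up 2.78% in VEH and 6.93% in LEM (1.32, 1.07 to 1.57), and male ones 3.75% and 3.31% (-0.18, -0.39 to 0.03). Among the interferon-responsive cells the median rule-gene sum was 26 in VEH females and 18 in LEM females, and 21 and 24 in males.

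The share rose with depth in both libraries, from 0.307% of VEH and 0.165% of LEM cells under 2000 counts to 3.69% and 4.79% of cells in the deepest of 6 bands. Within the 5 depth bands above 2000 counts LEM was higher in each, by log2 ratios of 0.08 to 0.67. After thinning every cell to 2000 counts, with at least 4 counts over at least 3 rule genes, the shares were 1.33% and 1.57% (0.24). In female cells the ratio lay between 0.76 and 1.70 in these 5 bands, and in male cells between -1.41 and 0.21. The female value of 0.76 rests on 8 VEH and 25 LEM cells and that of 1.70 on 3 and 12, and both intervals included 0. All 5 male intervals included 0, and the value of -1.41 rests on 12 VEH and 5 LEM cells.

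**Figure D4:**
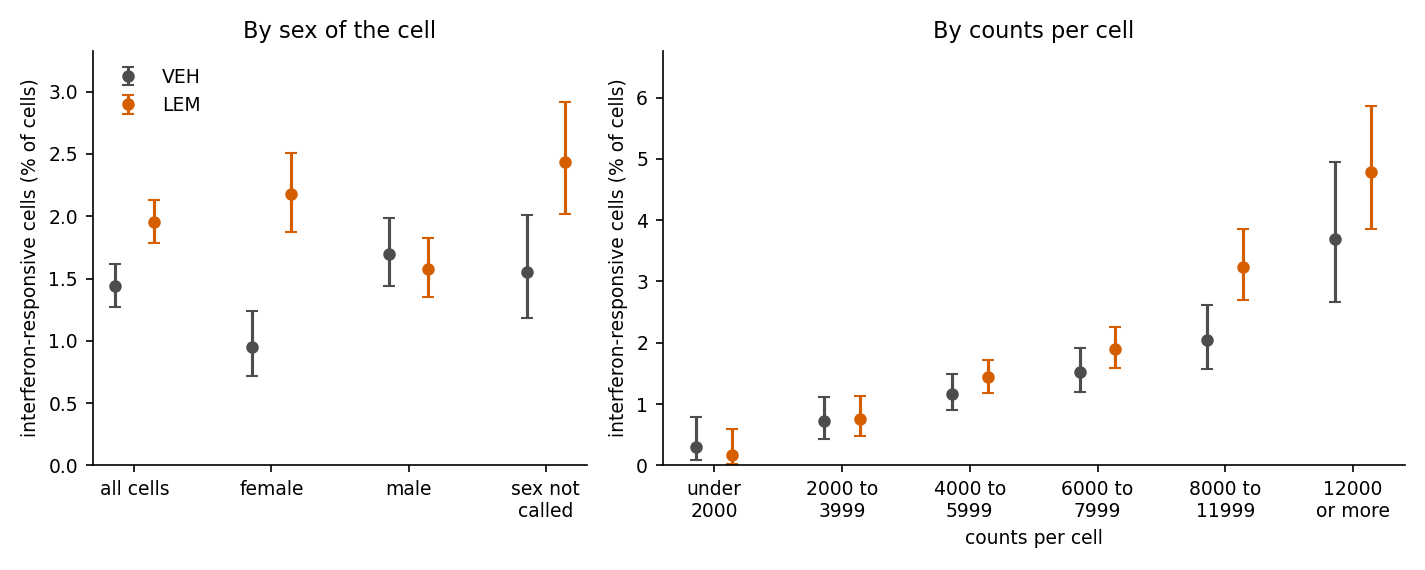
Interferon-responsive cells as a percent of all cells of a group (vertical axis) in VEH and LEM, by sex and by total counts per cell (horizontal axes), with bars for exact 95% intervals that cover counting error only. The female share is 0.9497% in VEH and 2.18% in LEM, and the male share 1.70% and 1.577%.

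Levels of the response were then compared between the libraries within the interferon-responsive cells. The 10 rule genes had a median log2 ratio of LEM over VEH of -0.16 and lay between -0.45 (*Ifit1*) and -0.01 (*Irf7*), where *Irf7*, *Rsad2*, *Oasl2* and *Ifi44* had intervals that included 0. The median was -0.58 in female and 0.12 in male cells, where 9 of the 10 were higher in LEM. Because cells were selected on these genes, their levels inside the class also reflect which cells cross the threshold, and nothing is read from them. Of the 88 effectors outside the rule, 25 were above and 63 below 0, with a median of -0.15, and none was past a log2 ratio of 1 in either direction. Among all 8283 genes, 3993 were above and 4290 below 0, with a median of -0.01, 28 were at 1 or more (0.338%) and 29 at -1 or less (0.35%). The effector median was -0.26 in female and -0.01 in male cells, and -0.07 with a rule-gene sum of at least 20. The effectors also rose with the rule-gene sum. In VEH they summed to 12175 CPM at sums of 10 to 19 and 25015 CPM at 40 and above, and in LEM to 12004 and 24995 CPM. Their levels inside the class thus also depend on which cells cross the threshold.

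In low cells the effectors stood in the opposite order. Their median log2 ratio of LEM over VEH was 0.10, and for 77 of 87 the ratio in interferon-responsive cells was below that in low cells, as it was for 4444 of all genes tested and 3838 lay above. Because effector levels inside the class depend on which cells cross the threshold, nothing is read from this count. *Ly6a*, a surface antigen induced by interferon, was at 80.0 and 116 CPM in VEH and LEM interferon-responsive cells (0.53) and at 1.44 and 5.49 CPM in low cells (1.93). *Ly6e* had ratios of 0.23 and 1.00, *Ifitm3* of -0.07 and 0.65, and *Oas1a* of -0.19 and 0.55. In female low cells 75 of 85 effectors with counts in both libraries were above 0, with a median of 0.21, and in male low cells 42 of 87, with a median of -0.01. All genes tested had a median of 0.01 over the low cells as a whole. Their values by sex were not set beside these counts, so nothing is read from the difference between the sexes. *Ifi27l2a* was at 42.1 and 103 CPM in VEH and LEM female low cells and at 49.1 and 41.1 CPM in male ones, and *Rtp4* at 17.4 and 36.2 CPM and at 18.4 and 14.7 CPM. *Ly6e* and *Ly6a* were higher in LEM low cells of both sexes (*Ly6e* at 550 and 838 CPM in females and 409 and 990 CPM in males). *Trim30d* stood apart, at 0.691 CPM in VEH and 24.1 CPM in LEM female low cells and at 12.3 and 10.8 CPM in male ones. The cause was not tested, and sex and mouse cannot be told apart here.

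Among single genes with larger ratios inside the class, 3 of 6 tested MHC class II genes were at -1 or less and 1, *H2-Oa*, was above 0 (0.27). The list's median was -0.97, or -0.50 among females and -1.25 among males. *H2-Aa* was at 228 CPM in VEH and 47.6 CPM in LEM (-2.26, -2.51 to -2.02), *H2-Ab1* at 208 and 64.5 CPM (-1.69), and *Cd74*, the invariant chain, at 998 and 446 CPM (-1.16), with ratios in low cells of -0.30, -0.30 and -0.21. At least 5 counts of class II genes were held by 22 VEH (8.33%) and 23 LEM (4.83%) interferon-responsive cells. The 5 highest cells held 69.9% of the *H2-Aa* counts in VEH and 58.5% in LEM. *H2-Aa* was detected in 12.5% of VEH and 7.77% of LEM cells, so it was tested through VEH alone. With a rule-gene sum of at least 20 its ratio was -3.22. Without the 5 highest cells of each library, a choice made after seeing the data, the ratios of *H2-Aa*, *H2-Ab1* and *Cd74* were -1.81, -1.18 and -0.64. That step removes a larger part of the smaller VEH class.

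Of 5 cell cycle genes tested 2 were at -1 or less and 1 was above 0, with a list median of -0.38 and -0.02 in low cells. The 2 were *Stmn1*, a tubulin-binding protein of dividing cells, at 63.0 and 21.97 CPM (-1.52), and *Tyms*, thymidylate synthase (-1.16). In no list but also lower in LEM, the histone *H2afx* was at 67.2 and 16.4 CPM (-2.04) and *Hist1h2ao* at 64.4 and 11.7 CPM (-2.46). Both reached 10% detection in VEH alone. Cells with at least 5 cell cycle counts numbered 8 in VEH (3.03%, 1.32 to 5.88) and 4 in LEM (0.840%, 0.229 to 2.14). Without the 5 highest cells of each library the *Stmn1* ratio was -0.30 (-0.90 to 0.32), that of *H2afx* -1.27 (-1.92 to -0.63) and that of *Hist1h2ao* -1.55 (-2.25 to -0.86).

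Other genes differed between the libraries in both classes. *Gapdh*, a glycolytic enzyme, was at 456 and 1131 CPM in interferon-responsive cells (1.31) and had a ratio of 1.25 in low cells. *Qpct* had ratios of 2.17 and 1.89 in the 2 classes, and within interferon-responsive cells of 0.72 in female and 3.26 in male cells. *Cfap77* (-2.14 and -1.78), *Pianp* (-2.69 and -2.005), *Tubb2b* (-1.90 and -2.05) and *Tubb2a* (-1.67 and -1.76) were lower in both. For *Gapdh*, *Qpct*, *Tubb2a* and *Tubb2b* the ratio in low cells lay inside the interval of the ratio in interferon-responsive cells. For *Cfap77* (-2.29 to -1.99) and *Pianp* (-3.40 to -2.04) it lay outside, nearer to 0. *Pianp* and *Tubb2b* reached 10% detection in VEH alone. The 10 early DAM genes were all above 0 within the class, with the lowest, *Timp2*, at 0.01, and with a median of 0.28 against 0.08 in low cells, beside the 3993 of 8283 genes above 0 given before. *Apoe* had ratios of 0.63 and 0.61.

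**Figure D5:**
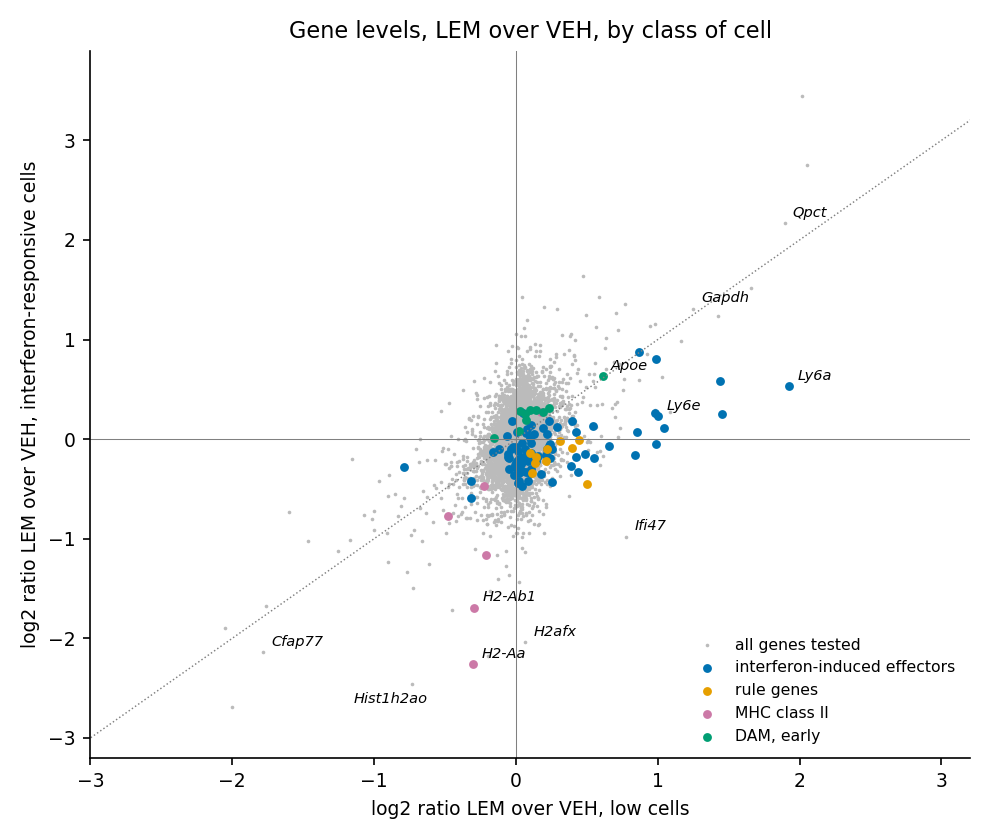
Log2 ratio of LEM over VEH in interferon-responsive cells (vertical axis) against the same ratio in low cells (horizontal axis), 1 point per tested or rule gene, with gene groups in colour and a dotted line of equality. *Gapdh* lies near the line, *Cfap77* a little below it, *H2-Aa* and *H2afx* far below it, and 1 gene lies outside the axes.

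Of 8 chemokines tested 7 were below 0 for LEM over VEH and 1 above, with a median of -0.24. The medians by sex were -0.57 (female) and -0.60 (male). *Ccl12*, which most of the cells expressed, was lower in LEM (2708 and 1808 CPM, -0.58, and -0.51 without the 5 highest cells) and level in low cells (0.02). *Ccl5*, a chemokine for T cells, was at 8.47 CPM in VEH and 65.2 CPM in LEM (18 and 267 counts, 2.94, 2.26 to 3.72), with a ratio of 1.86 in low cells. It was detected in 3.03% and 8.40% of the cells, below the 10% required for testing, and the 5 highest cells held 83.3% and 56.5% of its counts. *Cxcl9* had 0 counts in VEH and 86 in LEM, at least 3.895 higher on the log2 scale when VEH is set to the floor of 3 counts. *Tnf* was at 68.2 and 116 CPM (0.77). *Cxcl10* had a ratio of -0.17, which was -1.12 among females and -0.59 among males and became 0.86 without the 5 highest cells of each library.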

How the data were processed

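Single-cell RNA was measured in 1 VEH and 1 LEM library. The authors aligned and counted the reads with Cell Ranger 8.0.0 (per the labels, mm10), corrected free RNA with SoupX and filtered cells on genes, counts and mitochondrial share. They also describe leaving out clusters that were low in microglial markers and high in those of other cell types. The deposited table holds UMI counts as whole numbers for 32285 genes, and 0 columns were unmatched. Whether the SoupX correction and the removal of these clusters are included is not given in the sources used here. Clec7a, Mx1, Mx2, Oas1b, Ifi6 and Cxcl11 were not analysed here.

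Counts were summed over the cells of a class in a library, and CPM and log2 ratios with exact conditional binomial intervals were computed (Python 3.11.15, NumPy 2.4.6, SciPy 1.17.1, matplotlib 3.10.9), after tests on simulated data. Shares have Clopper-Pearson intervals, and ratios of shares log-normal ones. Intervals treat counts as independent, which counts gathered in a few cells are not. Genes detected in at least 10% of interferon-responsive cells of either library were tested against a log2 ratio of 1. For a gene that reached 10% in 1 library only, this filter favours a higher level in that library. In ratios, a gene at 0 counts in a class was set to a floor of 3 counts. Doublets were called by Scrublet (Scanpy 1.11.5, expected rate 0.1) and kept. The sex of each cell was read from its sex-linked transcripts. Depth-matched low cells were drawn by bins of 1000 counts.

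The members and gene lists were chosen with earlier results of these data known. Named genes were the rule genes, the leading genes of each list, the 15 highest and 10 lowest ratios over low cells (by the library nearer 0), and the 10 highest and 10 lowest ratios of LEM over VEH changed the same way in both sexes, with those that differ most between the classes. Alternatives were other thresholds, scalings, filters, sexes, doublets and thinning to 2000 counts.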

Additional observations from a re-analysis of the deposited data

Results flagged for a closer look

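The log2 ratio of LEM over VEH in the share of interferon-responsive cells had opposite signs in the cells of each sex, although the male interval included 0. It was 1.20 in females (0.76 to 1.63) and -0.10 in males (-0.41 to 0.21), with intervals that leave out the spread between mice. With 1 pool per treatment, the difference between the sexes was not tested. When a sex call needed at least 2 counts, the ratios were 1.34 and -0.19, and without doublets 1.22 and -0.08.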

How the results depend on the processing

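No paired analysis was possible because each treatment was 1 pooled library, and for the same reason no replicate could be left out. The log2 ratio of shares, 0.44, was 0.24 to 0.56 under 9 other settings and 1.20 in female and -0.10 in male cells alone. The effector median over low cells (2.68 in VEH and 2.39 in LEM) was 3.03 and 2.72 with a rule-gene sum of at least 20, 2.21 in LEM females, 2.66 in LEM males, 2.49 in LEM after median-of-ratios scaling and 2.88 in VEH with genes detected in at least 1% of cells. The effector median of LEM over VEH (-0.15) was -0.26 in females and -0.012 in males. Genes higher than in low cells (181) numbered 290 at a log2 ratio of 0.58 and 382 with detection in at least 1%, and genes lower (2) numbered 52 at 0.58, 0 at a stricter ratio of a 3-fold change, 1 against depth-matched low cells and 25 with detection in at least 1%. Of the single genes, 425 values under other settings stayed inside the counting interval of the reported ratio, 115 lay outside it and 1 past the fold changed sign. This was *Srebf2*, at 1.20 for LEM over VEH and at -0.13 in female cells, and the cause was not tested. Shares under 2000 counts per cell rest on 4 VEH and 2 LEM cells, so depth limits what they show.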

Other observations

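Genes outside every interferon list that were past the fold in interferon-responsive cells, included 5 that are named here after their values were seen. *Nampt*, which makes the precursor of NAD, was at 90.3 CPM in VEH and 75.4 CPM in LEM against 24.1 and 24.7 CPM in low cells. *Casp4* (caspase-11), which senses cytosolic lipopolysaccharide, was at 48.0 and 51.7 CPM against 19.6 and 21.1 CPM. The RNA helicase *Mov10* was at 41.9 and 39.5 CPM against 14.9 and 14.8 CPM, and the cap methyltransferase *Cmtr1* at 68.7 and 60.8 CPM against 29.0 and 29.8 CPM. *Fcgr4*, an activating receptor for IgG, was at 16.5 and 29.3 CPM against 8.02 and 10.6 CPM.

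Intermediate cells, with a rule-gene sum of 3 to 9, already held part of the profile. *Ifi27l2a* was at 275 CPM in VEH and 374 CPM in LEM against 47.1 and 68.9 CPM in low cells, and *Oas1a* at 72.9 and 81.2 CPM against 8.36 and 12.2 CPM. MHC class II genes summed to 1513 CPM in VEH and 987 CPM in LEM intermediate cells, against 541 and 471 CPM in low cells and 1971 and 884 CPM in interferon-responsive cells. Doublet calls were more frequent among intermediate cells (10.5% and 20.2%) than among low cells (8.37% and 13.99%), and their part in these levels was not tested.

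The ranked genes not described above were in no list. Over low cells, *Gm3252*, *Gm3468*, 2610020C07Rik, *Ctnnd2*, *Setbp1*, *Acvr2a* and *Cnnm2* were lower in both libraries, from -0.79 for *Cnnm2* in VEH to -1.17 for 2610020C07Rik in VEH, and the adenylyl cyclase gene *Adcy8* was at -1.62 in VEH and -0.93 in LEM. *Adcy8* and *Lrrc49* were higher in LEM than in VEH in both classes, with ratios of 2.75 and 3.45 in interferon-responsive and 2.06 and 2.02 in low cells. In interferon-responsive cells the ratios rest on 7 and 3 VEH counts (intervals of 1.65 to 4.11 and 1.83 to 5.76). Both genes reached 10% detection in LEM alone. The VEH ratio of *Adcy8* over low cells rests on the same 7 counts. The ratio of *Adcy8* in interferon-responsive cells was 0.45 in female and 5.19 in male cells. *Gm42047* was at 106.3 CPM in VEH and 23.4 CPM in LEM interferon-responsive cells, with 34.97 and 30.5 CPM in low cells. Its ratio of -2.18 was -1.06 among females, -3.19 among males and -1.53 without the 5 highest cells of each library, which held 62.8% of its VEH counts. *Lgals1* (galectin-1) was at 37.6 and 11.5 CPM, with 15.02 and 10.98 CPM in low cells. It met the detection filter in VEH alone. *Etl4* was at 26.8 CPM in VEH and 51.7 CPM in LEM interferon-responsive cells, against 21.5 and 19.5 CPM in low cells. It met the detection filter in LEM alone. The ratios of LEM over VEH of *Cacna1s*, 2900026A02Rik, *Prdm11*, *Trim5*, *Neurl2*, *Srebf2*, *Arl13b*, *Fam160b1*, *Blzf1* and *Arhgef10l* lay between 1.03 (*Arhgef10l*) and 1.64 (*Cacna1s*) in interferon-responsive cells, on 26 or fewer VEH counts each. Each of these genes met the detection filter in LEM alone, which favours a higher level in LEM. *Zfp973* was at -1.43, on 35 VEH and 25 LEM counts. It met the filter in VEH alone, which favours a lower level in LEM.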
